A study of Mus musculus with 39 samples.

Results

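The Dlk1-Dio3 imprinted miRNA cluster of mouse chromosome 12 was followed through small-RNA counts of hearts. Its members were taken by position: every listed mature arm inside chr12:109565000-109750000 of GRCm38, with either strand label. That gave 96 arms of 52 hairpins among 1684 arms in all, spread over 175.9 kb from 109572004 to 109747949. The series holds 39 libraries of ventricular apex from wild-type mice of the inbred strain FVB/NJ, although the tissue label reads as whole heart. No library carried a treatment or a transgene. Females were sampled at 6 weeks (n = 6), 7 weeks (n = 3), 8 weeks (n = 2) and 9 weeks (n = 5). Males were sampled at 4 weeks (n = 2), 5 weeks (n = 3), 6 weeks (n = 12), 7 weeks (n = 1), 8 weeks (n = 4) and 16 weeks (n = 1). The labels do not say that each library came from its own animal, and p-values therefore speak only of how the libraries varied.

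The cluster is transcribed from the maternal chromosome only, in the same direction as the long noncoding RNAs Meg3, Rian and Mirg. The genes Dlk1, Rtl1 and Dio3 of the region are active on the paternal chromosome. Its hairpins are cut from long precursors by Drosha and Dicer, and each can give a 5p and a 3p mature arm. The cluster is known for high levels in embryo, placenta and brain and for a decline in muscle after birth. In striated muscle the transcription factor MEF2A activates it, and its miR-410 and miR-495 have been linked to the division of heart muscle cells. In bulk tissue, fewer cells that express a miRNA and less of it per cell cannot be told apart.

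Library totals ran between 1788245 and 14563754 counts, with a median of 8410768, and the lowest was female_8wk replicate 2. Levels are given as counts scaled to the library total (CPM), and 3 counts, the floor used here, corresponded to 0.206 to 1.68 CPM. The heart muscle markers miR-1a, miR-133a, miR-208a, miR-208b and miR-499 summed to 55800 to 161200 CPM, so the labelled tissue carried its own markers in each library. The labels name no batch. Counts of mature sequences that lie at more than 1 locus were divided between those loci in clearly different ways, and by 7 such pairs outside the cluster the libraries fell into 7 sets. Set 1 held the males of 4 and 5 weeks and 1 female of 6 weeks. Set 2 held 5 males of 6 weeks, set 3 held 3 females and 3 males of 6 weeks, and set 4 held 3 females and 5 males of 6 and 7 weeks. Set 5 held 3 females of 7 and 8 weeks and 1 male of 8 weeks, and set 6 held all 5 females of 9 weeks. Set 7 held female_8wk replicate 2, 3 males of 8 weeks and the male of 16 weeks. Age and library set could not be told apart for most libraries, and several results on the cluster moved with the set.

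Of the 96 members, 92 matched a mature miRNA of RefSeq (GRCm38.p6) by position and strand. The 12 most abundant members held 95.6% of the counts of the cluster, and their mature sequences are shown for that reason, 5′ to 3′, with the seed (bases 2 to 8) in capitals.
miR-127-3p: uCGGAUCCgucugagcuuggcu
miR-411-5p: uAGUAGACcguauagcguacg
miR-541-5p: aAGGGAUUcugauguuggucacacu
miR-434-3p: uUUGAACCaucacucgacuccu
miR-136-3p: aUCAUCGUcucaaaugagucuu
miR-381-3p: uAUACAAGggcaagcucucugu
miR-136-5p: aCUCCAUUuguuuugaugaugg
miR-410-3p: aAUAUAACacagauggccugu
miR-300-3p: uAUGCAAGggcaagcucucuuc
miR-434-5p: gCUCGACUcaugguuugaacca
miR-379-5p: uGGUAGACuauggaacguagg
miR-409-5p: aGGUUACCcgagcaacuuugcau
No 2 of these 12 arms had the same seed. miR-300-3p and miR-381-3p differed at 3 of 22 bases, of which 1 was in the seed (G4A, the base of miR-300-3p first, counted from the 5′ end). miR-379-5p and miR-411-5p, of neighbouring hairpins, differed at 7 of 21 bases, and 1 of these was in the seed (G2A, the base of miR-379-5p first).

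Shared seeds were found mainly among weak arms. The minor arms of the same 2 neighbours had the same seed and are shown to make that plain.
miR-379-3p: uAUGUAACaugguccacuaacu
miR-411-3p: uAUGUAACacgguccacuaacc
miR-379-3p averaged 2.61 CPM and miR-411-3p 3.49 CPM over the 39 libraries. The other seeds found in 2 members belonged to miR-379-5p with miR-1193-5p, miR-299a-3p with miR-299b-3p, miR-370-5p with miR-1193-3p, and miR-410-5p with miR-494-5p. The seed of miR-410-3p was also that of miR-344d-3p and miR-344e-3p outside the cluster. miR-127-3p, miR-541-5p, miR-434-3p and miR-136-3p had seeds found in no other mature miRNA of the RefSeq table. A first base of U, common among miRNAs, was found in 41.3% of the matched members and in 40.9% of the 1679 RefSeq mature miRNAs.

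The cluster was carried by a few arms. miR-127-3p (chr12:109592888-109592909, + strand) averaged 1478 CPM over the 39 libraries and made up 63.0% of all 744339 counts of the cluster. It lies opposite to Rtl1, a retrotransposon-derived gene of the paternal chromosome whose transcript it cleaves by full pairing. miR-411-5p (chr12:109710190-109710210) averaged 284 CPM and miR-541-5p (chr12:109742422-109742446, inside the span of Mirg) 107 CPM. miR-434-3p (chr12:109594565-109594586) and miR-136-3p (chr12:109595365-109595386), both also opposite to Rtl1, averaged 91.9 and 76.3 CPM. Only 10 members had a mean of 20 CPM or more, and together they held 94.3% of the counts. Adapter ligation favours some small RNAs over others, so levels of different miRNAs in a library are not directly comparable as molecules.

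By position the cluster fell into 2 blocks. The Meg3-side block, before the annotated start of Rian, had 22 members between 109572004 and 109595386 and held 74.7% of the cluster counts. The Rian/Mirg-side block had 74 members between 109611521 and 109747949 and held 25.3%. Of these, the 5 members inside Rian held 0.234%, most of it miR-341-3p (mean 4.72 CPM), and the 69 members from miR-379 on held 25.1%. The larger Rian/Mirg-side block thus held the smaller share of counts. Without miR-127-3p the order of the blocks turned, and the Meg3-side block held 31.0% ± 4.51 of the remaining counts (SD, n = 39).

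**Figure D1:**
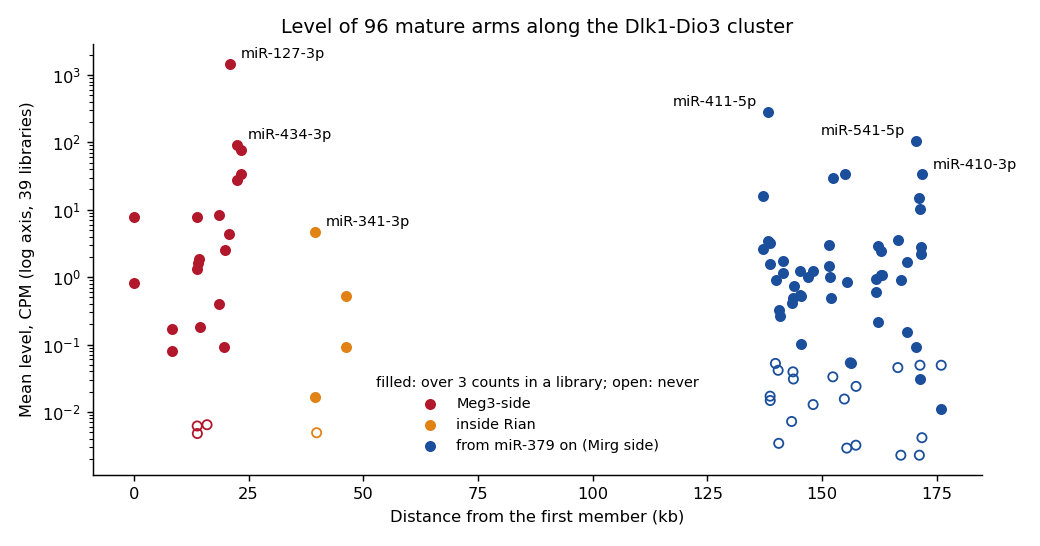
Mean level of each of the 96 members (CPM over 39 libraries, log axis) against distance from the first member in kb. Filled points had over 3 counts in some library and open points never did; miR-127-3p stands at 1478 CPM in the Meg3-side block, and the weak and silent arms crowd the stretch from miR-379 on.

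Some of the cluster never passed the floor of 3 counts. With 3 or fewer counts in each of the 39 libraries taken as silent, 25 of 96 members (26%) were silent, against 840 of all 1684 arms (49.9%). The Meg3-side block had 3 silent members of 22, which were both arms of miR-3544, listed on the minus strand opposite to miR-337, and miR-3070-5p. The Rian/Mirg-side block had 22 of 74, among them miR-300-5p, miR-381-5p, miR-410-5p and miR-154-3p, each the minor arm of a hairpin whose other arm was detected. Both arms of miR-544 and both of miR-299b were silent. Summed over the 39 libraries, the silent members had from 1 count (as in miR-323-5p) to 18 counts (miR-380-5p and miR-3072-3p). A count of 0 allows a level up to the floor of the library, so these arms stayed at or below the floor at this depth and were not shown to be absent.

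Between the strong and the silent arms lay a broad middle. In all, 71 members passed 3 counts in at least 1 library, 42 had a mean of 1 CPM or more, and 20 passed 3 counts in each of the 39 libraries. miR-495-3p, one of the arms linked to heart muscle cell division, averaged 1.01 CPM (0.138 to 2.17), while its partner in that role, miR-410-3p, averaged 33.7 CPM (18.6 to 57.6). miR-134-5p, which limits dendritic spine growth in neurons through Limk1, averaged 2.90 CPM. miR-494-3p, which protected mouse hearts from ischaemic injury when overexpressed, averaged 0.409 CPM and passed 3 counts in 12 libraries. miR-433-3p, studied in cardiac fibrosis, averaged 2.56 CPM.

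Nearly all reads came from the plus strand. The 5 members read from the minus strand held 16 counts of 744339. A further 8 of the 10 members with an antisense label lie on the plus strand and match miR-299a, miR-380, miR-376a and miR-409 of RefSeq, and they held 10173 counts. The names used here for these 8 are those of RefSeq.

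Which arm was the stronger differed from hairpin to hairpin. Among 27 hairpins with both arms listed and an average of at least 10 counts a library, the 5p arm held most of the counts pooled over all libraries in 15 and the 3p arm in 12. In 13 of them the stronger arm held over 90% of the pooled counts. In 9 the arm with more counts differed between libraries with 20 or more counts. Examples were miR-485 (28.0 to 81.8% on the 5p arm) and miR-369 (16.7 to 77.3%). Pooled over all libraries, miR-485 had 336 counts on the 5p arm and 328 on the 3p arm, and miR-369 had 692 and 900. The counting error of miR-485 and miR-369 is not given, so a change of their stronger arm beyond it was not tested. miR-127-5p, the other arm of the strongest hairpin, averaged 4.31 CPM, so that the 5p arm made up 0.331% ± 0.159 of miR-127 counts (SD, n = 39). miR-411 was the mirror case, with 98.8% ± 0.413 of its counts on the 5p arm. miR-410 gave a single 5p count beside 10530 counts of the 3p arm. miR-136 gave both arms, with 30.5% ± 3.25 on the 5p arm over the 38 libraries with 20 or more counts. miR-434 and miR-409 were the least fixed of the strong hairpins, at 25.7% ± 11.2 (n = 39) and 45.9% ± 23.1 (n = 38) on the 5p arm. Pooled over libraries, 58.0% of miR-409 counts were on the 5p arm, so pooled counts and the mean of libraries name different arms.

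The whole cluster took 0.233% ± 0.0741 of all counts (SD, n = 39). In males it stood at 3547 and 3686 CPM at 4 weeks and at 3138, 3180 and 3417 CPM at 5 weeks. At 6 weeks the 12 male libraries ran from 1310 CPM over a median of 2207 CPM to 3496 CPM, and the male of 7 weeks had 2389 CPM. At 8 weeks the 4 males ran from 1384 to 2055 CPM, all below each male of 4 and 5 weeks, and the male of 16 weeks had 1552 CPM. The share at 8 weeks was 0.463 of that at 4 weeks. Without miR-127-3p that ratio was 0.756, since the other members together had 614 to 925 CPM at 8 weeks and 982 and 1060 CPM at 4 weeks.

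In females the cluster ran from 1461 CPM over a median of 3099 CPM to 3430 CPM at 6 weeks (n = 6). It stood at 1198, 1830 and 2505 CPM at 7 weeks and at 2001 and 2113 CPM at 8 weeks. The 5 females of 9 weeks, all of set 6, lay between 1624 and 2146 CPM, inside the range of the 6-week females. Without miR-127-3p those of 9 weeks had 531 to 675 CPM, below each female of 6 weeks (695 to 1108 CPM). They did not stand apart from the ages between, which had 540 to 1120 CPM at 7 weeks and 447 and 937 CPM at 8 weeks. The Meg3-side block without miR-127-3p had 133.3 to 162.6 CPM at 9 weeks, against 247 to 397 CPM at 6 weeks, and these did not overlap. At 7 weeks it had 204 to 349 CPM. At 8 weeks it had 325 CPM in female_8wk replicate 1 and 124.7 CPM, below all of 9 weeks, in female_8wk replicate 2. The Meg3-side share of the cluster was 74.8 to 77.1% at 9 weeks, within the 69.3 to 81.8% of 6 weeks.

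**Figure D2:**
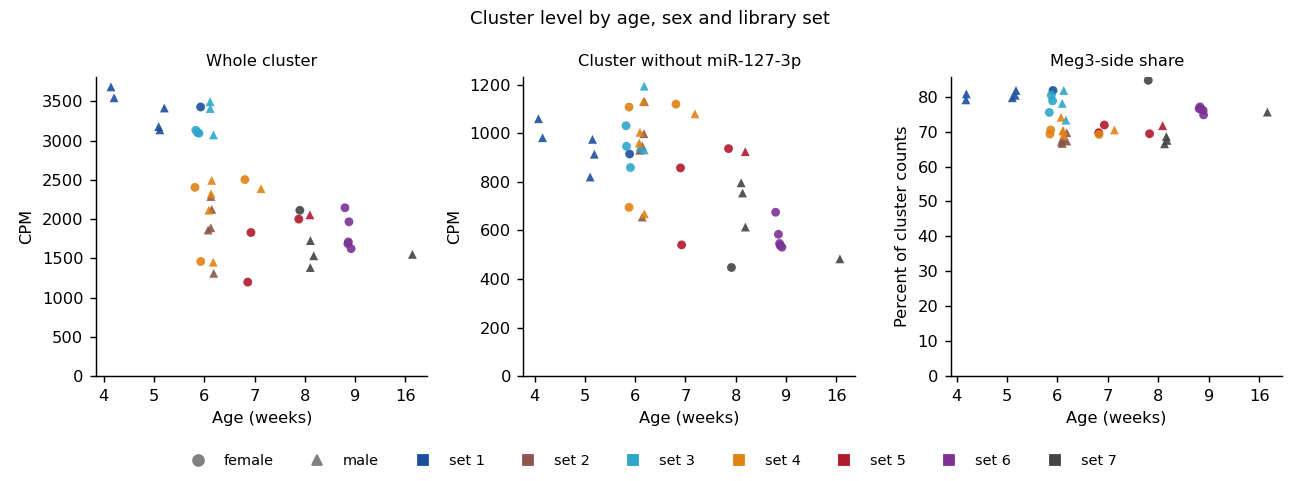
Level of the whole cluster, level without miR-127-3p (both CPM) and Meg3-side share of cluster counts (percent) by age in weeks; ages are evenly spaced categories, circles are female and triangles male libraries, and colours are the library sets. At 6 weeks the libraries of sets 1 and 3 lie at 3074 to 3496 CPM and those of sets 2 and 4 at 1310 to 2494 CPM for the whole cluster, while without miR-127-3p the same libraries overlap.

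The change with age was tested in males from 4 to 8 weeks as a log2 slope per week over 22 libraries, with the edgeR quasi-likelihood test, TMM scaling and Benjamini-Hochberg adjustment over all arms. Arms with 5 CPM in at least 5 libraries were tested, which 20 of the 96 members passed. Of these, 12 passed an adjusted p of 0.05, against 35% of the 346 arms tested in all. In direction, 11 members fell and 1 rose, against 21.4% of all arms that fell and 13.6% that rose. By library totals alone 35 of the 346 arms fell and 61 rose, in place of 74 and 47, and 5 members fell and 1 rose. The median slope of the 20 members was -0.18, and that of all 346 arms was close to 0. The cluster's decline in males was among the results that led to its choice, so these counts describe it and are no independent support.

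On the Meg3 side, 5 of 9 tested members fell. miR-127-3p had 2565 and 2626 CPM at 4 weeks, 2266, 2318 and 2442 CPM at 5 weeks, 655 to 2564 CPM with a median of 1157 CPM at 6 weeks, 1309 CPM at 7 weeks and 770, 780, 931 and 1130 CPM at 8 weeks. Those of 8 weeks lay below all of 4, 5 and 7 weeks and overlapped those of 6 weeks. Its slope was -0.47 ± 0.09 log2 units a week (SE, adjusted p = 0.000663 by edgeR). miR-434-5p, from the same stretch opposite to Rtl1, had 43.6 and 52.6 CPM at 4 weeks, 36.0, 38.1 and 42.7 CPM at 5 weeks and 15.6, 21.4, 21.7 and 24.8 CPM at 8 weeks. Its 12 values at 6 weeks (16.4 to 48.2 CPM) spanned nearly both ranges, and its slope was -0.38 ± 0.08 (adjusted p = 0.00119).

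The other 3 Meg3-side arms that fell were weaker and changed less. miR-431-5p, which promotes muscle differentiation through Pax7, had a slope of -0.25 ± 0.06 (edgeR adjusted p = 0.00181). miR-673-5p, the first hairpin after Meg3, had -0.27 ± 0.07 and miR-337-5p -0.21 ± 0.07. miR-337-5p missed the threshold without male_4wk replicate 2 or male_5wk replicate 2 (edgeR adjusted p = 0.0527 and 0.0534). The partner arms miR-434-3p (-0.12 ± 0.07), miR-127-5p (-0.09 ± 0.06), miR-136-3p (-0.02 ± 0.06) and miR-136-5p (0.01 ± 0.08) did not pass. Arms of the same hairpin therefore had different slopes, as in miR-127 and miR-434, although the difference between arms was not tested.

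On the Rian/Mirg side, 6 of 11 tested members fell and 1 rose. miR-409-5p, inside Mirg, had the steepest slope of the members tested. It had 31.2 and 78.5 CPM at 4 weeks, 19.5, 23.6 and 62.7 CPM at 5 weeks, 3.93 to 47.6 CPM with a median of 7.74 CPM at 6 weeks, and 7.43 CPM at 7 weeks. At 8 weeks it had 0, 0.121 and 0.385 CPM in the 3 libraries of set 7 and 8.22 CPM in the library of set 5. The slope was -1.27 ± 0.28 (edgeR adjusted p = 0.00176). Its partner miR-409-3p was steadier, with 7.52 to 12.6 CPM at 8 weeks and 9.99 and 17.9 CPM at 4 weeks, and a slope of -0.23 ± 0.06.

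miR-541-5p had 113 and 183 CPM at 4 weeks, 118, 134 and 167 CPM at 5 weeks and 77.6, 78.0, 83.3 and 109 CPM at 8 weeks. Those of 8 weeks lay below all 5 libraries of 4 and 5 weeks. They overlapped those of 6 weeks, which had 70.0 to 115.6 CPM in set 2 alone. The slope was -0.27 ± 0.07 (edgeR adjusted p = 0.0036). miR-379-5p, the first hairpin of the Mirg-side run, had a slope of -0.47 ± 0.16 (adjusted p = 0.0283), and its call ended without male_8wk replicate 1 or 4 (0.0529 and 0.0522). miR-300-3p fell by 0.20 ± 0.04 and miR-410-3p by 0.15 ± 0.04. miR-381-3p, which differs from miR-300-3p at 3 bases, had -0.08 ± 0.04 and was not called (adjusted p = 0.0821), and neither was miR-411-5p, the strongest arm of this side (-0.09 ± 0.04).

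miR-376b-5p was the only member that rose. It had 1.51 and 1.73 CPM at 4 weeks, 0.323, 0.617 and 1.92 CPM at 5 weeks and 4.06, 4.74, 5.11 and 6.15 CPM at 8 weeks. Its slope was 0.43 ± 0.12 (edgeR adjusted p = 0.00972). It entered the test through exactly 5 libraries of 6 to 8 weeks at 5 CPM or more, so a member tested in this way had to be higher at the later ages. Its partner miR-376b-3p, at 1.46 CPM on average, was not tested.

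**Figure D3:**
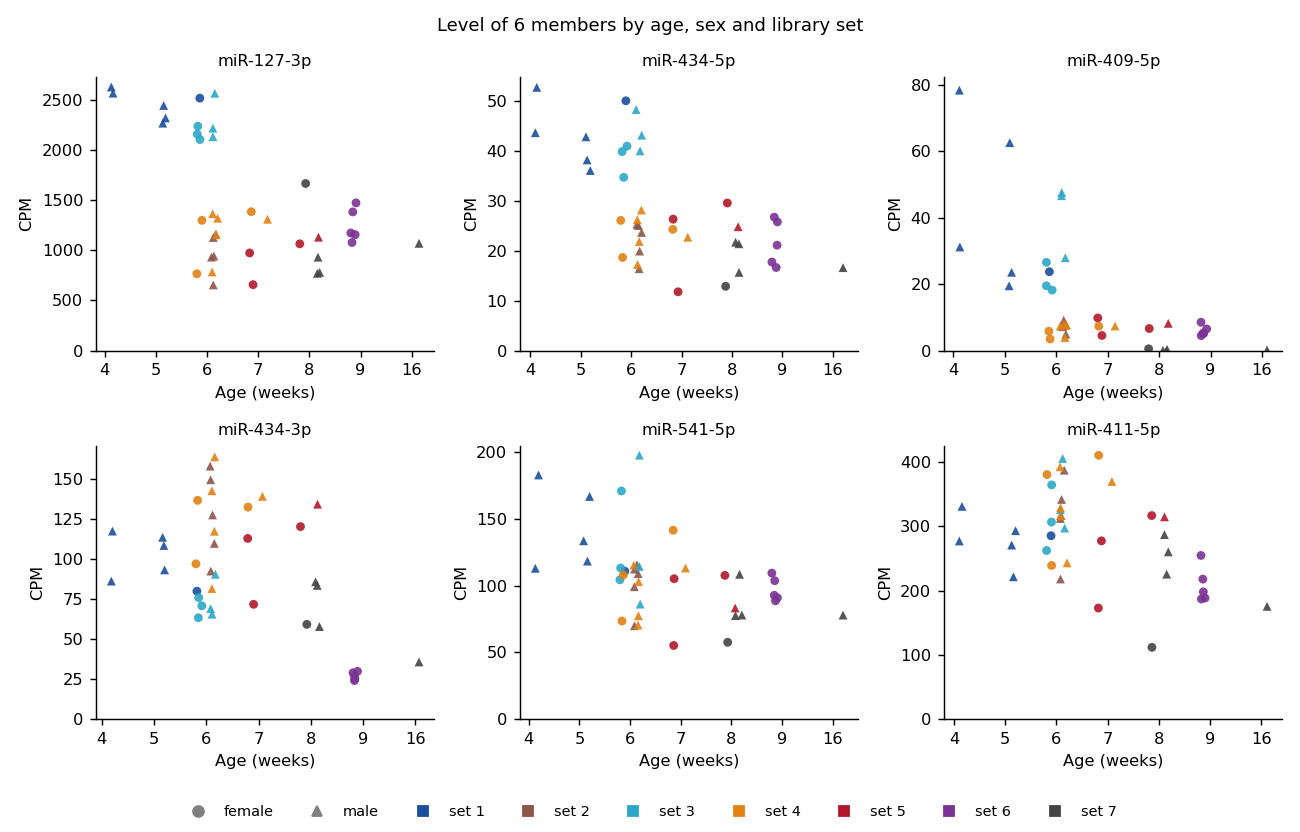
Level of 6 members (CPM) by age in weeks, with ages as evenly spaced categories, circles for female and triangles for male libraries, and colours for library sets. miR-127-3p, miR-434-5p and miR-409-5p are high in sets 1 and 3 at every age present, whereas miR-434-3p is lower in set 3 (63.4 to 90.6 CPM) than in set 2 (92.6 to 158 CPM).

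These slopes could not be separated from the library sets. Among males of 4 to 8 weeks only sets 1 and 4 held more than 1 age. A fit with the set as a term could therefore hardly show a slope. With the set as a term in the model, edgeR called 0 of 20 members and 0 of 346 arms (0 members and 20 arms at an unadjusted p under 0.05), and the median slope of the members was -0.06. miR-127-3p then had -0.04 ± 0.09 (adjusted p = 0.906), miR-434-5p -0.23 ± 0.12 and miR-409-5p -0.35 ± 0.35. Those of miR-431-5p (0.13 ± 0.17) and miR-376b-5p (-0.09 ± 0.33) turned their sign, among others. Within set 1 alone, which compares 5 with 4 weeks, 0 of 16 members were called and miR-127-3p had -0.09 ± 0.12. Within set 4 alone, 1 male of 7 weeks (taken to vary like the rest) against 4 of 6 weeks, 0 of 14 were called and miR-127-3p had 0.02 ± 0.11. Scaled by library totals alone, 6 of 20 members (30%) were called in males, close to the 27.7% of all 346 arms. They were miR-127-3p, miR-434-5p, miR-409-5p, miR-541-5p, miR-673-5p and miR-376b-5p.

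**Figure D4:**
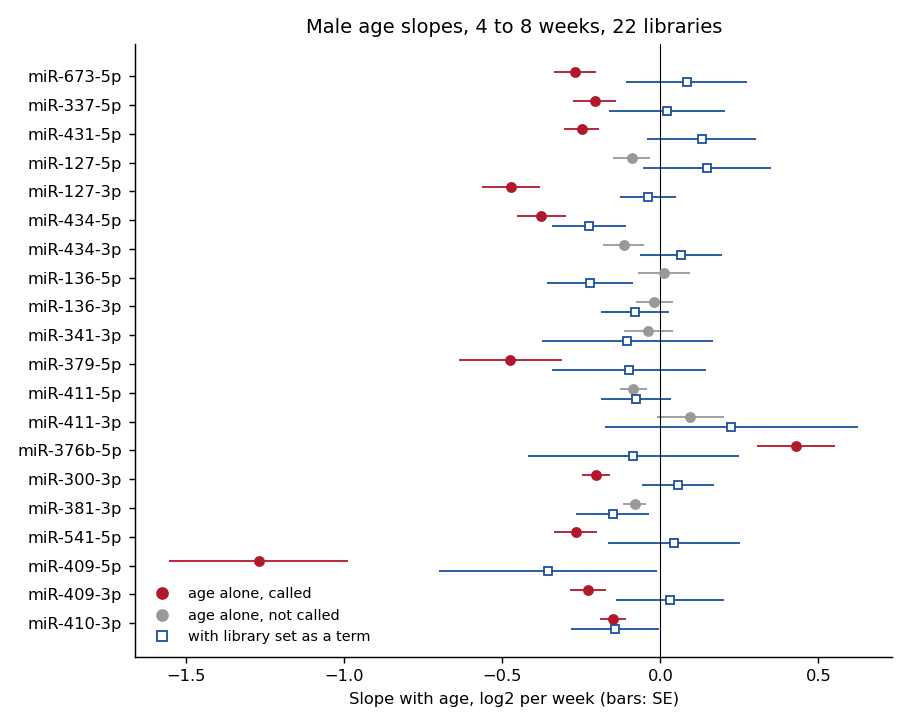
Log2 slope per week (points) with its SE (bars) for the 20 members tested in 22 male libraries of 4 to 8 weeks, in order of position. Filled points are the model with age alone, red where called; open squares add the library set, and with it the slope of miR-127-3p stands at -0.04 in place of -0.47.

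The 6-week hearts show the members at a single age. miR-127-3p had 2103, 2156 and 2236 CPM in the females and 2131, 2216 and 2564 CPM in the males of set 3, and 2515 CPM in the female of set 1. In set 4 it had 766 and 1298 CPM in females and 784, 1155, 1319 and 1364 CPM in males, and the 5 males of set 2 had 655 to 1159 CPM. The libraries of sets 1 and 3 were all above those of sets 2 and 4, in both sexes. Sets 1 and 3 at 6 weeks overlapped the males of 4 and 5 weeks (2266 to 2626 CPM). The males of 4 weeks had 2565 and 2626 CPM, and the highest library of 6 weeks (2564 CPM) was level with the lower of them.

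Several other members had the same division at 6 weeks. miR-434-5p had 34.6 to 48.2 CPM in set 3 and 49.9 CPM in set 1, against 16.4 to 25.2 CPM in set 2 and 17.2 to 28.1 CPM in set 4. miR-379-5p had 22.4 to 64.9 CPM in set 3, against at most 13.0 CPM in set 2 and 12.9 CPM in set 4. miR-409-5p had 18.2 to 47.6 CPM in set 3, against at most 9.16 CPM in set 2 and 8.06 CPM in set 4. With miR-127-3p these made 4 of 19 members that were higher in set 3 than in sets 2 and 4 with no overlap, and no member was lower. Of all 339 arms tested at this age, 12.4% were higher with no overlap and 5.9% lower, so the sets also divided arms outside the cluster.

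Other members showed no such division. miR-411-5p had 263 to 406 CPM in set 3, 218.2 to 388 CPM in set 2 and 239 to 393 CPM in set 4 at 6 weeks. miR-300-3p and miR-410-3p overlapped in the same way, with means of 35.6 and 36.7 CPM in set 3 and of 31.2 and 33.5 CPM in set 2. miR-434-3p was lower in set 3 than in set 2 and overlapped set 4, at 63.4 to 90.6 CPM in set 3, 92.6 to 158 CPM in set 2 and 81.7 to 164 CPM in set 4.

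Spread over the 12 males of 6 weeks followed the division by set only in part. The coefficient of variation was highest for miR-127-3p (44.8%), miR-434-5p (37.0%) and miR-541-5p (31.9%). It was lowest for miR-381-3p (13.3%), miR-300-3p (16.5%) and miR-411-5p (17.3%). Unlike miR-127-3p and miR-434-5p, miR-541-5p overlapped between the sets at 6 weeks, with 86.2 to 197.7 CPM in set 3 and 70.0 to 115.6 CPM in set 2. Over all 235 arms of 20 CPM or more the median was 26.1%, with quartiles of 20.5 and 36.5%. A single arm outside the cluster took over 40% of the counts in male_6wk replicates 2 and 6, female_6wk replicate 1 and female_7wk replicate 2, and these had the lowest cluster levels of their groups (1198 to 1461 CPM). The most abundant member of the cluster was also its most variable among those of 20 CPM or more.

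The choice of arm moved with the library set in some hairpins as well. On miR-434, the 5p arm held 13.0 to 18.7% of counts in set 2, 13.8 to 17.4% in set 4 and 14.1 to 19.7% in set 5. It held 24.9 to 38.4% in set 1, 30.6 to 42.3% in set 3 and 38.1 to 47.9% in set 6. The sets 2, 4 and 5 did not overlap sets 1, 3 and 6, and set 7 lay between and across them at 17.8 to 31.7%. Here and for the hairpins that follow, sets were grouped or picked by these same values. How many hairpins in or outside the cluster divide the sets without overlap was not counted. On miR-409, the 5p arm held 53.4 to 88.7% in set 1 and 64.9 to 85.8% in set 3, and 28.6 to 55.6% over sets 2, 4, 5 and 6. In the 4 libraries of set 7 with 20 or more counts it held 0 to 4.82%.

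miR-136 and miR-411 varied less between sets. miR-136 ran from 25.4 to 37.8% over all sets, with set means between 26.9 and 33.8%. miR-411 ran from 97.8 to 99.4%. miR-379 favoured its 5p arm throughout but also moved with the set, since it held 85.9 to 97.4% on it in sets 1, 3 and 6 and 62.2 to 82.6% in sets 2, 4, 5 and 7. On miR-127 the 5p arm reached at most 0.641% in any library, but set 1 (0.156 to 0.266%) and set 2 (0.463 to 0.641%) did not overlap.

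**Figure D5:**
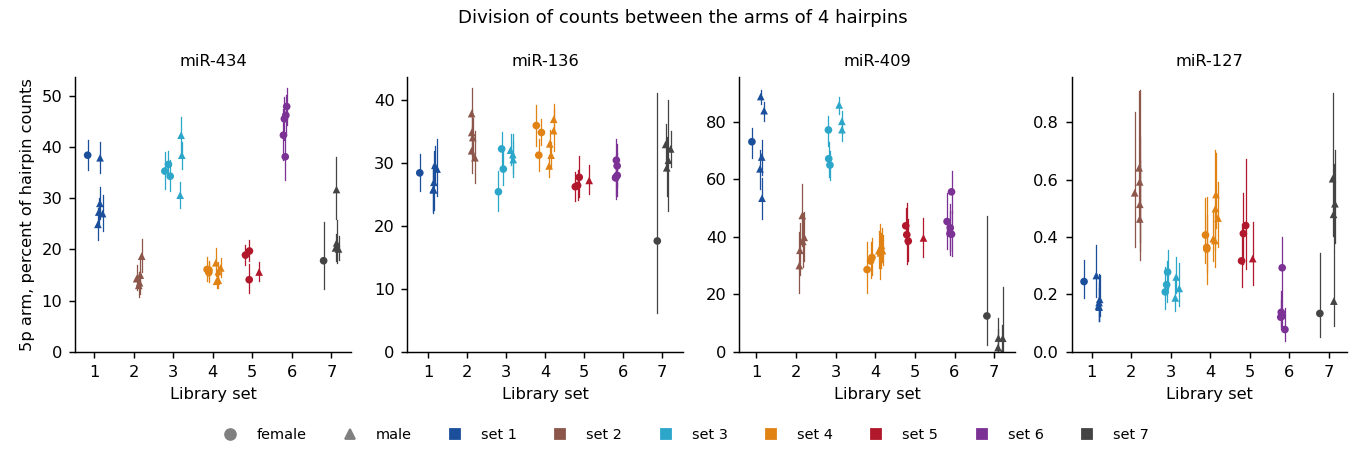
Percent of hairpin counts on the 5p arm of miR-434, miR-136, miR-409 and miR-127 by library set; points are libraries (circles female, triangles male) and bars are 95% Wilson intervals, which cover counting error only. The 5p arm of miR-434 holds at most 19.7% in sets 2, 4 and 5 and at least 24.9% in sets 1, 3 and 6, and that of miR-409 at most 4.82% in the libraries of set 7 with 20 or more counts.

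In females the slope was fitted from 6 to 9 weeks over 16 libraries. Of 16 members tested, 2 passed the threshold and both fell, against 3.02% of 331 arms called in either direction and 2.72% that fell. miR-434-3p had 24.2, 25.2, 27.0, 29.0 and 29.9 CPM at 9 weeks, against 63.4 to 136.8 CPM with a median of 78.0 CPM at 6 weeks. At 7 weeks it had 71.8, 113 and 132.6 CPM and at 8 weeks 59.3 and 120 CPM, so that only the libraries of 9 weeks stood apart. Its slope was -0.45 ± 0.12 (edgeR adjusted p = 0.0496), and the call ended without any 1 library of 6, 7 or 9 weeks (0.05 to 0.114). From 6 to 8 weeks alone it was 0.10 ± 0.14 (adjusted p = 0.636). All libraries of 9 weeks belonged to set 6, which held no other age, so the level at 9 weeks and the set cannot be told apart.

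miR-337-5p was the other. It had 3.16, 3.7, 4.09, 4.43 and 5.72 CPM at 9 weeks, 6.71 and 6.87 CPM at 8 weeks, 4.15, 7.13 and 9.63 CPM at 7 weeks and 6.00 to 11.1 CPM at 6 weeks. Those of 9 weeks lay below all of 6 and 8 weeks, and the slope was -0.27 ± 0.06 (edgeR adjusted p = 0.0366). That call ended without any 1 of female_6wk replicates 2 to 5 or of the 5 libraries of 9 weeks (edgeR adjusted p = 0.0592 to 0.103). Among the libraries of 9 weeks only that of 5.72 CPM reached the 5 CPM of the filter, so miR-337-5p was tested through its younger libraries. With no filter 0 of 90 members were called in females. miR-381-3p, miR-300-3p and miR-431-5p came close, with slopes of -0.16 ± 0.04, -0.15 ± 0.04 and -0.23 ± 0.07 (adjusted p = 0.0531, 0.0542 and 0.073). Without female_8wk replicate 2, the library of fewest counts, 7 of 16 members were called and all fell, and over all arms 75 of 328 were called (22.9%), of which 46 fell. Among the 7 were miR-136-5p (-0.24 ± 0.06) and miR-136-3p (-0.18 ± 0.05). With the library set as a term, 0 of 16 members and 0 of 331 arms were called (0 members and 17 arms unadjusted). Among females only sets 4 and 5 held more than 1 age, so that fit could hardly show a slope.

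miR-127-3p was not called in females (-0.07 ± 0.09, adjusted p = 0.773). It had 1077, 1155, 1172, 1382 and 1472 CPM at 9 weeks, inside the 766 to 2515 CPM of 6 weeks. miR-541-5p likewise had 88.6 to 109 CPM at 9 weeks, within the 73.5 to 171 CPM of 6 weeks, and a slope of 0.01 ± 0.06 (adjusted p = 0.979).

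The sexes were compared at 6 weeks, with 6 female and 12 male libraries. None of 19 members tested was called, and edgeR called 0% of the 339 arms (0 members and 25 arms at an unadjusted p under 0.05). DESeq2 and limma-voom also called none. miR-127-3p had 766 to 2515 CPM with a median of 2129 CPM in females, against 655 to 2564 CPM with a median of 1157 CPM in males. The difference, female minus male, was 0.47 ± 0.26 log2 with a 95% interval of -0.08 to 1.02 (edgeR adjusted p = 0.478). Sets 1 and 3 made up 4 of 6 female and 3 of 12 male libraries, and with the set as a term the difference was -0.07 ± 0.07. miR-411-5p differed by -0.03 ± 0.09 (95% interval -0.22 to 0.16), and miR-136-3p by 0.00 ± 0.09 (-0.18 to 0.18). miR-409-5p had the widest interval of the members tested, -1.11 to 1.24. Within set 3 it had 18.2, 19.6 and 26.6 CPM in females, all below the 28.0, 46.7 and 47.6 CPM of males (-0.95 ± 0.24, edgeR adjusted p = 0.276).

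The slopes of the sexes were compared directly from 6 to 8 weeks, over 11 female and 17 male libraries. None of 20 members was called, against 2.02% of 346 arms (7 arms; 1 member and 77 arms unadjusted). DESeq2 and limma-voom also called no member. The member below an unadjusted p of 0.05 was miR-410-3p, at 0.39 ± 0.14 log2 per week, female minus male (edgeR adjusted p = 0.111). It passed the threshold without female_8wk replicate 1 (0.50, adjusted p = 0.0184), where 1 of 20 members (5%) and 89 of 346 arms (25.7%) were called. With the library set as a term, 5 of 20 members were called (25%), as were 94 of all 346 arms (27.2%). miR-127-3p (0.52 ± 0.13), miR-410-3p (0.49 ± 0.13) and miR-673-5p (0.63 ± 0.18) then had higher slopes in females, and miR-136-3p (-0.53 ± 0.16) and miR-136-5p (-0.54 ± 0.20) lower ones. These 3 members that were higher were also high, and the miR-136 arms low, in female_8wk replicate 2, the only female of set 7.

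That library stood apart from its partner of the same age. female_8wk replicate 2 had 1665 CPM of miR-127-3p, against 1064 CPM in female_8wk replicate 1. It had 7.83 CPM of miR-136-3p and 1.68 CPM of miR-136-5p, against 104 and 37.4 CPM. Its Meg3-side share was 84.7% (95% Wilson interval 83.6 to 85.8%), the highest of the 39 libraries, and red blood cell markers summed to 405000 CPM in it, against 73690 CPM in its partner. Their part in these levels was not tested.

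The male of 16 weeks, the only library past 9 weeks, was low in some members and not in others. Its red blood cell markers summed to 249800 CPM, against at most 161900 CPM in the other males, and their part in its levels was not tested. It had 16.8 CPM of miR-136-3p and 7.35 CPM of miR-136-5p, below each of the other 22 males (51.2 CPM and 20.5 CPM or more). It had 35.8 CPM of miR-434-3p, also below each of them, and 176 CPM of miR-411-5p. Its 1069 CPM of miR-127-3p and 33.9 CPM of miR-410-3p lay inside the range of the males of 8 weeks. With 1 library at this age no test was made of it alone.

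Imprinted miRNAs outside the region gave a point of reference. Of 10 arms from H19, Igf2, Mest and Nespas, 4 were tested. In males miR-296-5p (-0.37 ± 0.11), miR-298-5p (-0.57 ± 0.09) and miR-335-3p (-0.30 ± 0.10) fell, and miR-335-5p did not pass (0.04 ± 0.07). In females miR-296-5p (-0.49 ± 0.09) and miR-298-5p (-0.27 ± 0.07) fell. Of all arms tested, 21.4% fell in males and 2.72% in females. With the library set as a term, 0 of 346 arms were called in males and 0 of 331 in females. Age and library set could not be told apart for these arms either. Of 106 arms from the Sfmbt2 miRNA cluster, 74 were silent and at most 1 was tested, which was not called.

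Markers of other cells were set beside the cluster by library set. Nerve and brain markers, from a tissue where the cluster is also high, summed to 160 to 239 CPM in set 1 and 175 to 202 CPM in set 3, where miR-127-3p was high. They summed to 251 to 402 CPM in set 2, 170 to 427 CPM in set 4 and 293 to 411 CPM in set 5, and 1 of their 15 arms was silent. They were as low in set 6 (161 to 201 CPM) and set 7 (115 to 247 CPM), where miR-127-3p averaged 1252 and 1043 CPM and was not high. Fibroblast markers summed to 4327 to 4827 CPM in set 3 and 2573 to 4602 CPM in set 4. Red blood cell markers ran from 163700 to 209300 CPM in set 6, where miR-434-3p was lowest (24.2 to 29.9 CPM), and from 48460 to 161900 CPM over sets 1 to 5. In set 7, where miR-434-3p was at 35.8 to 85.9 CPM, they ran from 113500 to 405000 CPM, from below to above the range of set 6. Smooth muscle markers summed to 143000 to 155500 CPM in set 6 and endothelial markers to 34780 to 42290 CPM. The smooth muscle and endothelial sums are given for set 6 alone and the fibroblast sums for sets 3 and 4 alone. They are therefore no comparison over all sets. The part of these cells in the levels of the cluster was not tested.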

How the data were processed

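The authors deposited a table of raw counts per mature arm for each of the 39 libraries, with a chromosome position, and the submitters' processing notes name GRCm38 as the build, DESeq and edgeR; the aligner and the counter were not given in the sources used here. Per the labels' protocols, TruSeq small RNA libraries were made from total RNA. Counts were joined on arm, position and strand label, and CPM used the file total. Members and lists were chosen with earlier results of these data known. Members were matched to RefSeq mature miRNAs by 15 or more shared bases on the strand read. Named members were the 12 most abundant, the 3 strongest of each block, each member called, their partner arms and the extremes of spread at 6 weeks. miR-134, miR-433, miR-494 and miR-495 were named for known roles, and miR-369 and miR-485 for their arms, after their values were seen. The fits used edgeR 4.0.16 with TMM factors on all arms with 5 CPM in at least 5 fitted libraries (R 4.3.3), with Benjamini-Hochberg adjustment and a threshold of 0.05. Wilson intervals are at 95% and cover counting error only. Alternatives used DESeq2 1.42.0, limma 3.58.1, other scalings and filters, the replicate number as a block, the library set as a term and leaving out libraries. Library sets came from the division of counts between 7 pairs of loci with identical mature sequences outside the cluster. Scripts were tested on simulated data with 200 changed arms. No column was left unused.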

Additional observations from a re-analysis of the deposited data

Results flagged for a closer look

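Among 42 combinations of a member and a group of 4 to 10 libraries, 4 held a library far from the others by Dixon's criterion, which chance flags in about 1 in 20 groups. miR-409-5p had 8.22 CPM in male_8wk replicate 1, the only male of 8 weeks in set 5, and 0 to 0.385 CPM in the 3 of set 7. miR-136-5p had 66.2 CPM in female_6wk replicate 6, against 26.9 to 38.4 CPM in the other 5 females of that age, and 15.6 CPM in female_9wk replicate 1, against 19.9 to 21.7 CPM in the other 4. miR-300-3p had 21.9 CPM in female_6wk replicate 1, against 33.7 to 38.1 CPM in the other 5.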

How the results depend on the processing

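In males, 12 members were called by edgeR, and 12 by DESeq2, limma-voom and DESeq2 size factors, 6 by library totals, 5 of 10 with a mean of 20 CPM or more, 2 of 20 at 6 to 8 weeks (11.1% of all arms), 5 of 18 at 4 to 6 weeks (35.6% of all arms), 0 of 20 with a term for library set, 0 within set 1 and within set 4 (both within-set fits added after seeing the data). By library totals the 6 were 30% of the members tested, against 27.7% of all arms. With no filter 9 of 92 members were called (9.78%, against 6.81% of all arms), and 5 of the 12 main calls stayed. Leaving out 1 library gave 10 to 12 called members, with the lowest without male_8wk replicate 4. Without that library miR-376b-5p missed the filter, as it did without any of 4 other libraries. In females, 2 members were called, with 5 by DESeq2, 4 by limma-voom, 0 by DESeq2 size factors, 0 with no filter, 0 with the set as a term, 1 without the libraries dominated by 1 arm, 4 with sense features only, 7 without the library of fewest counts, 1 at 6 to 8 weeks (miR-379-5p, added after seeing the data), and 0 to 7 leaving out 1 library. Over all 331 arms in females, 10 were called by edgeR, 48 by DESeq2, 25 by limma-voom, 2 by DESeq2 size factors, 1 with no filter, 16 with a mean of 20 CPM or more, 16 with sense features only, and 75 without female_8wk replicate 2. For the difference between slopes, 5 were called with the set as a term and 0 to 1 leaving out 1 library, and at 6 weeks no member was called in any setting run. Over all 346 arms that difference was called in 7, in 25 by DESeq2, 1 by limma-voom, 0 by library totals, 94 with the set as a term, and 1 to 89 leaving out 1 library, with the highest without female_8wk replicate 1. The share ratio of 0.463 became 0.756 without miR-127-3p (added after seeing the data), and ran from 0.428 to 0.49 leaving out 1 library. The median male slope of -0.21 (Meg3 side) became -0.134 with no filter, -0.133 by library totals, 0.021 with the set as a term and 0.005 within set 1, and that of -0.15 (Rian/Mirg side) became -0.072, -0.077, -0.085 and -0.127, and 0.025 within set 4.

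With the set as a term, male slopes turned sign for miR-300-3p (0.056), miR-409-3p (0.031), miR-337-5p (0.021), miR-376b-5p (-0.085), miR-431-5p (0.131), miR-541-5p (0.042) and miR-673-5p (0.084), and the female slope of miR-337-5p (0.046). Within set 1 they turned for miR-409-3p (0.026), miR-337-5p (0.097), miR-431-5p (0.204), miR-673-5p (0.256) and miR-300-3p (0.01). Within set 4 they turned for miR-300-3p (0.111), miR-409-3p (0.025), miR-127-3p (0.024), miR-431-5p (0.024) and miR-541-5p (0.13). miR-136-5p was called at -0.25 from 6 to 8 weeks, 0.37 from 4 to 6 weeks and -0.16 with the 16-week library, and miR-434-3p turned to 0.10 in females of 6 to 8 weeks. The cause was not tested.

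The replicate numbers do not pair the samples: between females and males of 6 weeks, deviations of same-numbered libraries correlated from -0.38 to 0.34. With the replicate block, 12 members were called in males, 0 in females, 0 between the sexes and 0 for the difference between slopes. Summing members with identical mature sequences was not run, since no 2 members have the same one. At the depth of the thinnest library, members below 1.68 CPM could not be told from 0.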
